A study of Caenorhabditis elegans with 2 samples.

Results

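The genes of the X dosage compensation machinery of Caenorhabditis elegans were examined for binding of T26A8.4, a protein that RefSeq annotates with a C3H1-type (zinc finger) domain. The 10 members were sdc-1, sdc-2, sdc-3, dpy-21, dpy-26, dpy-27, dpy-28, mix-1, capg-1 and set-4, out of 19973 protein-coding genes on the 6 chromosomes. They were chosen by their known role in dosage compensation, with earlier results on peak positions in these data in view, so counts of members with a peak are a description and carry no test. A gene was called bound when the summit of a peak lay in its promoter window, which reached 1000 bp upstream and 200 bp past the annotated gene start. Chromatin immunoprecipitation followed by sequencing (ChIP-seq) was done on whole L4 larvae of strain OP692, collected at 48 hours after the starved L1 stage that followed bleaching. These worms carry the integrated transgene wgIs692, in which T26A8.4 is joined to TY1, EGFP and 3xFLAG tags, with an unc-119(+) rescue copy in the unc-119 (tm4063) mutant background, and the antibody recognised GFP. There was 1 group with 2 biological replicates of this same strain and no contrast between conditions. Whole animals were used, so the tissue in which a peak arose is not known, and neither the sex of the animals nor the amount of the tagged protein was analysed here. Peaks called in the 2 replicates together and past the authors' reproducibility threshold are named the combined set (2993 summits). The ranked lists hold weaker regions as well, 68113 for the replicates together, 70405 for replicate 1 and 66732 for replicate 2. The peak signal is the authors' own score, and it was compared within a list only.

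In worms with a pair of X chromosomes, the dosage compensation complex binds along both of them and lowers their transcription. SDC-2, which is made in hermaphrodites and not in males, directs the complex to X together with SDC-3 and SDC-1. The core of the complex is a condensin, a ring-shaped machine that folds DNA, in which DPY-27 and MIX-1 are the motor (SMC) subunits and DPY-26, DPY-28 and CAPG-1 are the regulatory subunits. DPY-27 is particular to dosage compensation, whereas MIX-1 and the regulatory subunits also serve condensins of cell division. DPY-21 is a demethylase and SET-4 a methyltransferase of histone H4, and they act on the mark that distinguishes the X chromosomes of these animals.

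T26A8.4 was bound at the promoters of 3 of the 10 genes, which were set-4, sdc-2 and dpy-27. Across all protein-coding genes 7.06% were bound. A further peak lay far inside mix-1, in an intron. This made 4 of 10 members with a combined-set summit in the window or the gene body, against 10.5% of all protein-coding genes. That share was not matched for gene length, and 9 of the 10 members but 3233 of the 19973 genes are at least 5000 bp long. The promoters of sdc-1, sdc-3, dpy-21, dpy-26, dpy-28, mix-1 and capg-1 held no combined-set summit. The 3 bound promoters thus included the X-targeting gene, the dosage-compensation-specific motor subunit and the histone methyltransferase. The peak counted for the motor subunit gene, dpy-27, also lay 86 bp upstream of an ncRNA gene and cannot be assigned to either gene by position. The same 3 genes were bound in the thresholded list of replicate 1, where 4.84% of all protein-coding genes were bound, and in that of replicate 2, where the share was 5.5%.

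**Figure D1:**
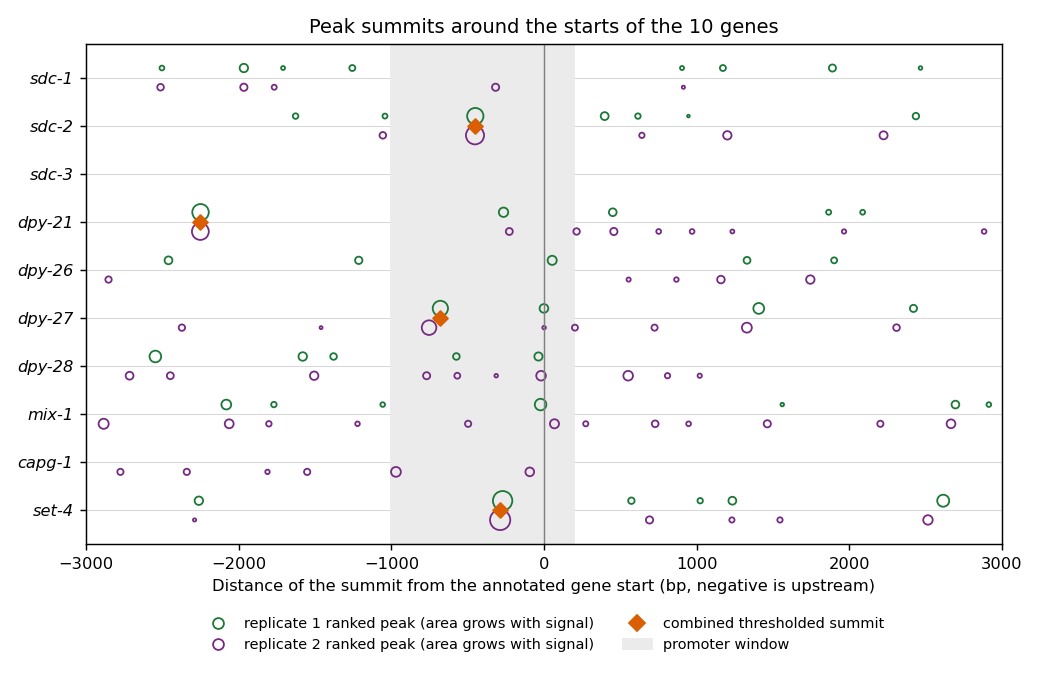
Position of peak summits within 3000 bp of the start of each of the 10 genes (x axis, bp on the gene's strand), with circles for the ranked peaks of replicate 1 (green) and replicate 2 (purple), whose area grows with peak signal, and diamonds for summits of the combined set. Diamonds lie in the shaded promoter window of sdc-2, dpy-27 and set-4, a further one lies 2252 bp upstream of dpy-21, and the row of sdc-3 is empty.

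The reference DNA around the summits of the 4 peaks is shown, and the recovered reads themselves were not analysed. Each sequence is the reference genome (RefSeq WBcel235) for 100 bp on each side of the combined-set summit, read on the strand of the gene. They lie at chrII:6331531-6331731 (minus strand) for set-4, chrX:11522155-11522355 (plus strand) for sdc-2, chrIII:3820259-3820459 (minus strand) for dpy-27 and chrII:10840175-10840375 (plus strand) for mix-1. In the promoter sequences capitals mark GAGAGA or CTCTCT as read on the printed strand. TCTCTC, which is how GAGAGA on the other strand reads here, was not marked as such. In the mix-1 sequence capitals mark a match to the tRNA B box, which RNA polymerase III promoters hold within the transcribed part of tRNA genes. The sequence of dpy-27 holds neither GAGAGA nor CTCTCT and is all in lower case, but it does hold TCTCTC.
set-4: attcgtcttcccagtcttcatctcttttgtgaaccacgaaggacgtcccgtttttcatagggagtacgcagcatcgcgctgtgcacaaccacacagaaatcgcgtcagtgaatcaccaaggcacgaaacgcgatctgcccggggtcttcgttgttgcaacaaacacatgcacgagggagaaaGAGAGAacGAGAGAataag
sdc-2: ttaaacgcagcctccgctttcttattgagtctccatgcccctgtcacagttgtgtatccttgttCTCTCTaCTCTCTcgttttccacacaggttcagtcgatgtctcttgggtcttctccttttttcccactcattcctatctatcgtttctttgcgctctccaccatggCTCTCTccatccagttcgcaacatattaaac
dpy-27: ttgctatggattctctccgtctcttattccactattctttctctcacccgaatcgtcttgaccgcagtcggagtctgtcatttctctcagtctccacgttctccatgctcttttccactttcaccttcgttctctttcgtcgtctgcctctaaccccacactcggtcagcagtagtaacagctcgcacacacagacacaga
mix-1: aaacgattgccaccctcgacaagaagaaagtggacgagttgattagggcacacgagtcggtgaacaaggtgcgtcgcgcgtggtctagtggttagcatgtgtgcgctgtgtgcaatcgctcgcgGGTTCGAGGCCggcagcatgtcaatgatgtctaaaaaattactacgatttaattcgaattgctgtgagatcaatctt

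The promoter peak of set-4, which encodes the histone H4 methyltransferase, had the highest signal of the members. Set-4 lies on chromosome II from 6329838 to 6331341 on the minus strand (WBcel235), and its peak, from 6331527 to 6331714, lay in intergenic sequence with the summit at −290 bp from the gene start. The signal was 262 in the combined set, rank 373 of 2993. Replicate 1 gave a signal of 128 (rank 402 of 1933 thresholded peaks) and replicate 2 a signal of 139 (rank 341 of 2141). Both replicates therefore placed the peak in the upper part of their lists, and their summits were 16 bp apart. At 188 bp the combined interval was narrower than the 420 bp intervals at sdc-2 and dpy-27. The next gene upstream, ttc-39B, is on the same strand and ends 478 bp before set-4, and its own start is 2356 bp from the summit, so that set-4 was the sole protein-coding gene with this summit in its window.

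The peak of sdc-2, the gene of the X-targeting protein, was the second of the promoter peaks by signal. The gene lies on X from 11522707 to 11533450 on the plus strand, and the peak from 11522045 to 11522464 had its summit at −452 bp. Its signal was 199 in the combined set (rank 651), 90.7 in replicate 1 (rank 778) and 111 in replicate 2 (rank 575). The replicates' summits were 2 bp apart. The nearest upstream gene, hpo-34, runs on the other strand and is 3640 bp away, and no other annotated gene of any kind came within 1000 bp of the summit.

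Dpy-27, which encodes the SMC subunit particular to dosage compensation, had the weakest of the 3 promoter peaks. The gene lies on chromosome III from 3813018 to 3819679 on the minus strand, and the peak from 3820149 to 3820568 had its summit at −680 bp. The signal was 157 in the combined set (rank 981), 79.6 in replicate 1 (rank 1014) and 72.6 in replicate 2 (rank 1206). The replicates' summits were 74 bp apart, the widest separation among the 4 peaks. The summit was also 86 bp upstream of R13G10.5, an annotated ncRNA gene on the same strand that the interval covers, so the peak cannot be assigned to one of these genes by position. At the annotated start of dpy-27 itself the lists held only a weak region, with a signal of 34.6 in the combined ranked list at +33 bp.

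The strong peak in mix-1, the gene of the SMC subunit shared with other condensins, lay far from the promoter. Mix-1 spans 17179 bp on chromosome II, from 10824246 to 10841424 on the plus strand, and the peak from 10840188 to 10840349 had its summit at +16029 bp, in intron 13 of 14 and 33 bp past the end of the preceding exon. The signal was 246 in the combined set (rank 433), 135 in replicate 1 (rank 365) and 104 in replicate 2 (rank 658), with summits 9 bp apart. That intron also holds M106.6, a snoRNA gene on the same strand, whose start is 42 bp downstream of the summit. The tRNA B box match printed above was present in 7.89% of the 2993 combined-set summit windows and in 11 of the 90 summits that lay within 200 bp of a snoRNA gene, and no tRNA gene is annotated within 1000 bp. This motif was added after the data were seen. Of the 9 members of at least 5000 bp, mix-1 alone had a combined-set summit in the gene body, a count of 1 of 9 against 11.3% of all protein-coding genes of that length, a comparison added after the data were seen.

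Of the promoters below the threshold, that of mix-1 came closest by score. A region at +16 bp from its start, which is 164 bp from the start of the divergent gene R06F6.12, had a signal of 78 and an authors' score of 399 in the combined ranked list, and thresholded peaks had scores of at least 830. Replicate 1 gave a signal of 45.3 at −22 bp and replicate 2 a signal of 28.1 at +69 bp. The promoter peaks of set-4, sdc-2 and dpy-27 had scores of 1000 in that list. The threshold is on the score and has no fixed place on the scale of signal, and a region inside dpy-27 with a signal of 87.9 had a score of 488 and did not pass.

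Dpy-21, the demethylase gene (chromosome V, 17936282 to 17949193, minus strand), had a region of signal 42.2 at −275 bp, with 30 in replicate 1 and 16.5 in replicate 2. Its nearest combined-set peak was much stronger but lay outside the window, at −2252 bp (signal 199, with 92.6 in replicate 1 and 96.9 in replicate 2, both past the threshold). That summit was at −504 bp from the start of Y59A8B.24, the neighbouring gene that runs in the opposite direction, and so lay in the promoter window of that gene. Dpy-28, a regulatory condensin subunit gene (chromosome III, 10763131 to 10777076, plus strand), had regions of signal 51.9 at −26 bp and 43.7 at −596 bp. For the first of these, replicate 1 gave 23 and replicate 2 gave 31.5.

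Upstream of dpy-28 stood one of the strongest peaks of the experiment. It lay on chromosome III from 10759082 to 10759440 at −3879 bp from dpy-28 and −55 bp from tasp-1, with a signal of 1320 (rank 7 in the combined set, 8 in replicate 1 and 7 in replicate 2). Tasp-1 is on the same strand and ends 109 bp before dpy-28 begins. Whether these neighbours share a transcript was not examined.

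The remaining members had weak regions in 1 replicate or none. Sdc-1, a zinc finger gene of the X-targeting group (X, 16275763 to 16282534, plus strand), had a signal of 50.3 at −335 bp in the combined ranked list and 17.8 in replicate 2, and replicate 1 had no peak in the window. Capg-1 (chromosome I, 7634492 to 7639785, minus strand) had 54.8 at −969 bp and 39.6 at −132 bp, which appeared in replicate 2 at 32.9 and 25.8 and not in replicate 1. Dpy-26 (chromosome IV, 12445801 to 12451335, minus strand), another regulatory condensin subunit gene, had 45.1 at +77 bp, with 28.3 in replicate 1 and no peak in the window in replicate 2.

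Sdc-3 (chromosome V, 15039148 to 15048207, minus strand), a zinc finger gene that acts with sdc-2, was the one member with no peak of any strength at its promoter. Neither replicate's ranked list held a summit within 3000 bp of its start, on either side, a state found for 26% of all protein-coding genes. The nearest ranked summits were at +5227 bp in replicate 1 (signal 3.58) and +4178 bp in replicate 2 (signal 15.8), and the nearest combined-set summit was 19134 bp away. The reads themselves were not analysed here, so whether reads can be placed at this start was not tested.

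**Figure D2:**
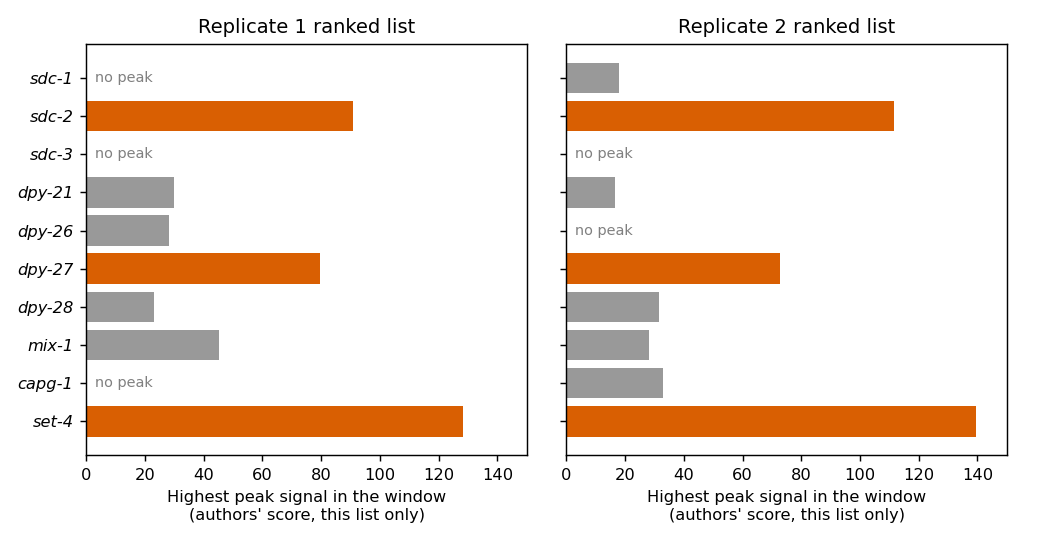
Highest peak signal in the promoter window of each gene in the ranked list of replicate 1 (left) and of replicate 2 (right), in the authors' score for that list, with the 3 bound genes in orange and bars starting at 0. In both lists set-4 is highest (128 and 139), sdc-2 second (90.7 and 111) and dpy-27 next (79.6 and 72.6), and the highest of the others are mix-1 in replicate 1 (45.3) and capg-1 in replicate 2 (32.9).

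Counting regions of any strength, 9 of 10 members had a peak of the combined ranked list in the window, against 43.3% of protein-coding genes. The count was 7 of 10 in replicate 1, where 48.4% of genes had one, and 8 of 10 in replicate 2, where 45.3% did. A ranked peak of both replicates lay in the window of 6 of 10 members and of 37.3% of protein-coding genes. Among genes with a peak, the median of the highest signal was 54.8 for the 9 members and 42.7 for all 8646 genes in the combined ranked list, 45.3 against 23.7 in replicate 1, and 32.2 against 23.1 in replicate 2.

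Ordered by this highest signal among the 19973 genes, set-4 stood at place 277, sdc-2 at 454 and dpy-27 at 639, all within the first 3.2%. Mix-1 followed at 1693 (8.48% from the top), capg-1 at 3002, dpy-28 at 3261, sdc-1 at 3438, dpy-26 at 4023 and dpy-21 at 4379 (21.9%). The order of the top 3 was the same in each replicate, with set-4 at 291 and 267, sdc-2 at 504 and 414, and dpy-27 at 651 and 789 in replicates 1 and 2. Below them the order was not shared, since capg-1 and sdc-1 had no place in replicate 1 and dpy-26 had none in replicate 2. The distances between capg-1, dpy-28, sdc-1, dpy-26 and dpy-21 in the combined list were smaller than the shift of dpy-28 between replicates, from place 5043 in replicate 1 to 2824 in replicate 2.

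**Figure D3:**
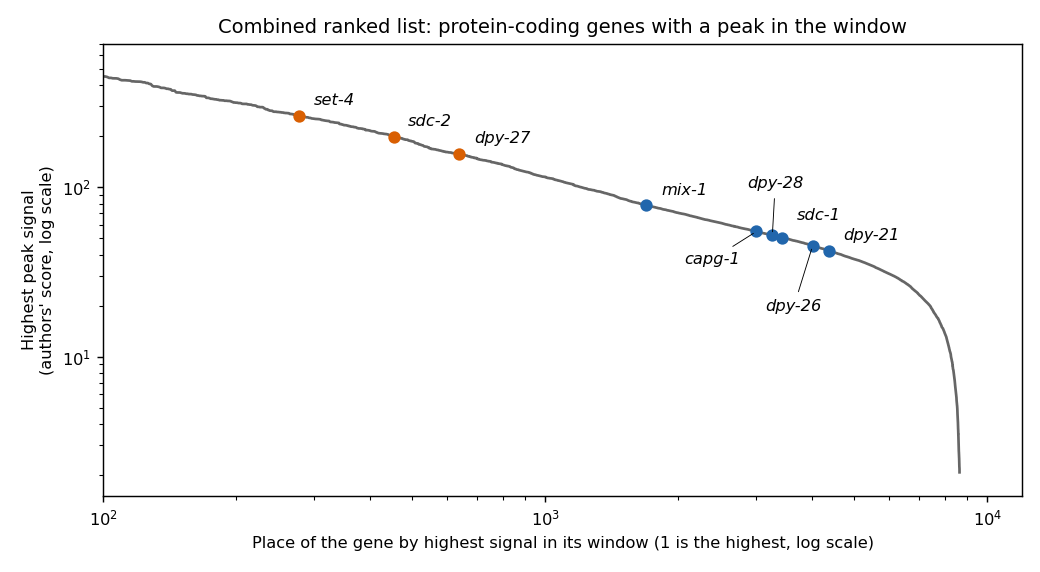
Highest peak signal in the promoter window (y axis, authors' score, log scale) against the place of the gene by that signal (x axis, log scale, drawn from place 100) for protein-coding genes with a peak in the combined ranked list, with the members as points and the 3 bound ones in orange. Set-4, sdc-2 and dpy-27 lie between places 277 and 639, mix-1 lies at 1693, the other 5 lie together between 3002 and 4379, and sdc-3 has no point because it had no peak.

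The sequences at the 4 peaks were compared with those at all combined-set summits. GC content over 100 bp on each side was 50.7% at set-4, 46.3% at sdc-2 and 49.3% at both dpy-27 and mix-1, and all 4 were above the median of all summits, 43.8% (quartiles 38.3% and 49.3%). On the strand of the gene, C and T made up 71.1% of the sdc-2 sequence and 68.2% of the dpy-27 sequence, above the upper quartile of 57.2% for the 1221 summits in promoter windows. The set-4 sequence stood apart from them at 46.3%, below the lower quartile of 47.8%. This measure was also chosen after the sequences were seen.

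GAGAGA, searched on both strands with overlapping matches counted, was in the promoter windows of 8 of 10 members and of 50.9% of protein-coding genes. Bound genes in general had it in 64.3% of windows. In the printed sequences around the summits, GAGAGA or its reverse complement TCTCTC occurred 2 times at set-4, the nearest 85 bp from the summit. It occurred 3 times each at sdc-2 and dpy-27, and not at mix-1. Of all 2993 combined-set summits, 30.5% had GAGAGA on either strand within 100 bp. The whole promoter window of dpy-27 had 4 matches, whereas those of mix-1 and capg-1 had none. CACGTG, the E-box, was in no member's window and in 18.4% of all windows. GCGCAGGG, the core of the motif at sites on X that recruit the complex made by these genes, was in no member's window and in 0.37% of all windows.

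Genes with related roles were described by the same rule. Of 24 genes of histone methylation, 8 were bound (33.3%), led by set-16, a histone H3 methyltransferase of the MLL family, whose peak at −181 bp had a signal of 1091 (rank 18). Mrg-1, a chromodomain protein gene, had 261 at −247 bp, and jmjd-1.2, a histone demethylase gene, had 222 at −483 bp. These 3 were bound in each replicate's own list as well. Met-1, a methyltransferase gene (131), and ash-2, a subunit of a methyltransferase complex (116), were bound in neither replicate's own list.

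Of 18 other condensin and cohesin genes, 2 were bound (11.1%). Wapl-1, whose product releases cohesin from DNA, had a peak of signal 729 at −167 bp (rank 51), found in both replicates' lists. Hcp-6, a subunit gene of the second condensin of cell division, had 125 at −122 bp, found in that of replicate 2 only. Smc-4, the cell division counterpart of dpy-27, was not bound. Of 17 annotated genes of X counting and sex determination, 0 were bound. The unbound genes included xol-1, which switches dosage compensation off in males, and her-1, which sdc-2 represses. A combined-set peak of signal 1195 (rank 13) lay outside the window of xol-1, with its summit at −4880 bp. Summits in the gene body alone were held by 1 of the 18 condensin and cohesin genes. The same was true of 2 of the 17 sex determination genes and 1 of the 24 histone methylation genes. Of all 19973 protein-coding genes, 1410 had a summit in the window and 2100 in the window or the gene body. The count of bound histone methylation genes fell to 4 in either replicate's own list and to 5 when a summit counted only for its nearest gene. The members' count was 3 in each of these. Of all protein-coding genes, 4.84% were bound in replicate 1, 5.5% in replicate 2 and 5.49% with the nearest gene only. In the window of 500 bp upstream and 100 bp downstream, the members' count was 2 and the histone methylation count 6.

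**Figure D4:**
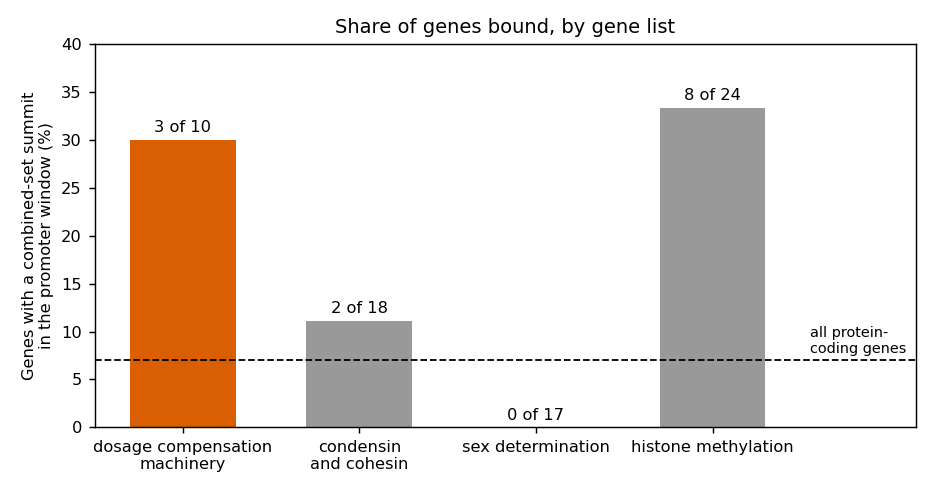
Share of genes with a combined-set summit in the promoter window (y axis, percent) for the 10 genes of the dosage compensation machinery (orange) and 3 related lists (grey), with the counts above the bars and the share of all protein-coding genes, 7.06%, as a dashed line. The bars stand at 3 of 10, 2 of 18, 0 of 17 and 8 of 24 genes.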

How the data were processed

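The series held 8 peak lists from 1 group of 2 biological replicates, on ce11 according to the labels. Each deposited list gives a peak signal and an integer score, which the authors derived by ranking peaks on the irreproducible discovery rate (IDR). A q-value as −log10 stands in the deposited thresholded lists and the replicates' ranked lists, and the IDR as −log10 in the deposited ranked lists. Neither was needed for a call. Thresholded lists held scores of at least 830. The sources used here name no aligner or peak caller. The control library was not used here. The lists carry no read depth, which is therefore unknown, and no interval was computed. In the combined ranked lists, 16 columns for single inputs could not be tied to a replicate and were left out.

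Summits were placed on the Ensembl release 115 annotation, with sequence from RefSeq WBcel235, the assembly that ce11 names, and all peak ends lay within the lengths of its 6 chromosomes. All 10 members were named whatever their values, with up to the 5 strongest bound genes of each of 3 related lists. The gene sea-3 of the sex determination list was not matched in the annotation. The members, lists and motifs were chosen with earlier results of these data known. With a single group there was no test. The counting was tested on simulated data. Alternatives were the conservative list, the 50% of summits with the highest signal, each replicate alone, windows of 500 bp upstream and 100 bp downstream or 2000 bp and 500 bp, starts of any transcript, and the nearest gene only. The software was Python 3.11.15 with NumPy 2.4.6, pandas 2.3.3 and Matplotlib 3.10.9.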

Additional observations from a re-analysis of the deposited data

How the results depend on the processing

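The members' count of 3 bound promoters was the same in the conservative list, in the 50% of summits with the highest signal, in each replicate alone, in the wider window, with starts of any transcript and with the nearest gene only. In the window from 500 bp upstream it was 2, without dpy-27. Of all protein-coding genes, 5.16% were bound in that window, 10.1% in the wider window and 6.63% in the conservative list. Their share was 4.84% in replicate 1, 5.5% in replicate 2, 7.73% with starts of any transcript and 5.49% with the nearest gene only. With the gene body added, the members' count was 4 in the conservative list, the high-signal set and each replicate alone. The share of all genes with the body added was computed for the combined set only (10.5%). The share of all protein-coding genes bound fell from 7.06% to 4.54% in the high-signal set. In that set 4 histone methylation genes were bound instead of 8, and with the nearest gene only 5 were. Without 1 replicate, 1 to 2 condensin and cohesin genes and 4 histone methylation genes were bound. The summit offset then ranged from −287 to −271 bp for set-4, from −452 to −450 bp for sdc-2 and from −753 to −679 bp for dpy-27, and the place of dpy-27 from 3.26% to 3.95% from the top. The cause of these shifts was not tested. No paired analysis was possible because the series has a single group. A list of 10 genes gives its share in steps of 1 gene.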

Other observations

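GCGCAGGG, the core of the motif at sites that recruit the dosage compensation complex, stood under several of the strongest peaks on X. These counts were made after the data were seen and have no test. Of 554 combined-set summits on X, 18 (3.25%) had the core within 100 bp, against 9 of 2439 (0.369%) on the autosomes. Of the 12 highest X peaks by signal, 7 held it, and of the 12 highest autosomal peaks 0 did. Among the 12 highest X peaks of each replicate's own thresholded list the count was 8 in replicate 1 and 8 in replicate 2. The median signal on X was 901 for summits with the core and 121 for those without, whereas on the autosomes it was 131 and 122.

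Seen from the genome, X held 81 occurrences of the core (4.57 per Mb) and the autosomes 233 (2.82 per Mb). A combined-set summit lay within 100 bp of 22 of the occurrences on X (27.2%) and of 9 of those on the autosomes (3.86%). For the 5 strongest X peaks with the core, the occurrence nearest the summit is printed with 20 bases on each side, read on the strand of the core, which is in capitals, from RefSeq WBcel235. They lie at chrX:11094206-11094253 (minus strand, signal 1594, the second highest of the combined set), chrX:14525880-14525927 (minus strand, 1552), chrX:6296528-6296575 (plus strand, 1525, inside mom-1), chrX:4209246-4209293 (minus strand, 1503) and chrX:2997103-2997150 (minus strand, 1208, inside Y41G9A.17). The core was preceded by atc and followed by a in 3 of these 5 printed occurrences, and with every occurrence near the summit counted, 5 of these 5 peaks and 8 of the 18 X peaks with the core held this flank. Over all occurrences on X this flank stood at 9 of 22 that lay at a summit and at 1 of 59 that did not, a comparison chosen after the sequences were seen. Whether the tagged protein binds this sequence, or whether these regions are recovered in other immunoprecipitations as well, was not tested, and the control library was not used here.
X peak of rank 2: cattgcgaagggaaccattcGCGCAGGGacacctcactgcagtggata
X peak of rank 3: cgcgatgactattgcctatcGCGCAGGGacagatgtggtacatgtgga
X peak of rank 4: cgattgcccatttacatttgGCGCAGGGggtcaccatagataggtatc
X peak of rank 5: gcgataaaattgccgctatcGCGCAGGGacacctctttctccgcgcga
X peak of rank 12: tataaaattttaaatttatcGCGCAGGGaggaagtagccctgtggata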
